A study of Mus musculus with 16 samples.

Results

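The primary granule genes described here are *Mpo*, *Elane*, *Prtn3*, *Ctsg*, *Prss57*, *Lyz1*, *Lyz2* and *Srgn*, 8 of the 54347 genes in the deposited table, found in it by their gene symbols. RNA was sequenced from LSKs (cells of the marrow gated as Lin-Sca-1+c-Kit+, which hold the stem cells and multipotent progenitors) and from GMPs (granulocyte-monocyte progenitors, which lack Sca-1 and carry Cd16/32) of UREΔ and wild-type (WT) mice. UREΔ mice lack the upstream regulatory element, an enhancer of *Spi1*, the gene of the transcription factor PU.1, in every cell of the body. They were compared with WT littermates at 8 to 12 weeks of age, before leukemia, on a C57BL/6 background. No mouse received a treatment. Each of the 4 groups held 4 mice, numbered 1 to 4, so that 16 libraries were compared. The gates limit what the groups stand for, since Cd16/32 is itself encoded by measured genes and the lineage cocktail held Gr1, which would remove mature neutrophils.

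Primary (azurophil) granules are the earliest granules that a developing neutrophil makes, and they are filled at the promyelocyte stage. Their content is a peroxidase, a family of serine proteases that are made as inactive forms and trimmed before storage, and lysozyme, with the proteoglycan serglycin as the matrix that holds the basic proteins. PU.1, with C/EBP and RUNX factors, is known to act at promoters of several of these genes.

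In LSKs, the proteases of UREΔ mice differed from WT in opposite directions. *Prtn3* and *Prss57* fell to a fraction of the WT level under every alternative tried. *Lyz2* fell and *Elane* rose as well. These calls were lost when any of 7 (*Elane*) or 6 (*Lyz2*) of the 8 libraries was left out. *Mpo*, *Srgn* and *Ctsg* did not pass the test, though *Ctsg* passed with the replicate number in the model and with DESeq2. In GMPs no gene of the group passed the test in the chosen edgeR fit. With the replicate number in that model 4 passed as higher. The share of all genes called higher also went from 4.67% to 9.52% with it. Some passed with DESeq2, which called 6% of all genes higher, and with other fits without the number. *Prtn3* and *Prss57*, lower in UREΔ LSKs, were not lower in UREΔ GMPs, and this difference between the cell types passed its own test for both genes.

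Library totals ranged from 20028302 to 29128858 counts. Values are given as CPM, the usual unit of counts scaled to library size, and levels of different genes are compared as counts per kilobase of exon, scaled to the same total in every library. *Spi1* was 124 ± 40.0 CPM (SD, n = 4 mice) in WT LSKs, 3.02 ± 1.42 in UREΔ LSKs, 140 ± 40.6 in WT GMPs and 21.3 ± 5.97 in UREΔ GMPs. It was thus lower in every UREΔ library than in every WT library of the same cell type. *Ly6a*, which encodes Sca-1, had a mean of 91.8 CPM in WT LSKs and 61.4 CPM in UREΔ LSKs against 2.25 and 1.36 CPM in the corresponding GMPs. By *Xist* and the Y-linked genes, replicate 1 was male and replicate 4 female in all 4 groups, whereas replicates 2 and 3 were male in WT and female in UREΔ mice, so that genotype and sex cannot be told apart within replicates 2 and 3. Results within replicates 1 and 4 are given where they moved the call of a gene of the group.

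The promoters of *Prtn3* and *Elane* are shown because the genes are neighbours, with 3072 bases between them on the plus strand of chromosome 10, and changed in opposite directions in LSKs. The windows run from 250 bases before to 50 bases after the RefSeq start on GRCm38.p6. They were matched by symbol for 7 of the 8 genes, all but *Prss57*. Capitals mark GAGGAAGT, a PU.1-type ETS sequence searched on both strands. *Prtn3* at chr10:79879417-79879716 and *Elane* at chr10:79886062-79886361, both on the plus strand, each held it once.
Prtn3: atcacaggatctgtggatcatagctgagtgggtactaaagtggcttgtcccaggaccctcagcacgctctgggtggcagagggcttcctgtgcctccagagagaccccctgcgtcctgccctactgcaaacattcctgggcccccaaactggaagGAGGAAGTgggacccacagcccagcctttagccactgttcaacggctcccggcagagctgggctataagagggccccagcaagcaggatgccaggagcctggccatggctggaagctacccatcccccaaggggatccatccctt
Elane: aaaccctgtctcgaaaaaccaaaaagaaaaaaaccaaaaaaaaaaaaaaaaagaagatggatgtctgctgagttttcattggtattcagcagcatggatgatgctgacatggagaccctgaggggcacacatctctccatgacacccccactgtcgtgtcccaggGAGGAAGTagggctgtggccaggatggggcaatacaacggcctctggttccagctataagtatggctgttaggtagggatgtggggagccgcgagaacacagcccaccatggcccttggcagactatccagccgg
In *Prtn3* the match began at -95 and in *Elane* at -85 from the RefSeq start, on the strand of the gene in both. *Mpo* (promoter window chr11:87793534-87793833, plus strand) held it at -224, shown with the bases around it.
Mpo: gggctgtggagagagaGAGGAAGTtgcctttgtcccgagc
The sequence was found in 3.202% of 32851 mouse promoters of this length. It was not found in the windows of *Ctsg*, *Lyz1*, *Lyz2* and *Srgn*. TTGCNNAA, a C/EBP-type sequence present in 10.8% of promoters, was found in *Lyz1* alone, and TGNGGT, a RUNX-type sequence present in 45.78%, in *Ctsg*, *Lyz2* and *Srgn*. For *Srgn* windows at chr10:62527396-62527695 and chr10:62507708-62508007 were searched, and the RUNX-type matches lay in the latter alone. A match is a description of the letters, not a measured binding site.

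The promoters of *Lyz2* and *Lyz1* are shown because they are 83.6% identical over 298 aligned bases while the counts of the genes differed widely. They lie on the minus strand at chr10:117282223-117282522 for *Lyz2* and chr10:117292819-117293118 for *Lyz1*, and no capitals appear since GAGGAAGT was not found.
Lyz2: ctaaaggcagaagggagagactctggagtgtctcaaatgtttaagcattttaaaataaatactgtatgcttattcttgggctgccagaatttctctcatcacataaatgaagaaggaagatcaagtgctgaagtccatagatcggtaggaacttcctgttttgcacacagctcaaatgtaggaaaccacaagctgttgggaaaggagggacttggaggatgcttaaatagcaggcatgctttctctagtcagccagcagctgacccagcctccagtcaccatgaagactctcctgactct
Lyz1: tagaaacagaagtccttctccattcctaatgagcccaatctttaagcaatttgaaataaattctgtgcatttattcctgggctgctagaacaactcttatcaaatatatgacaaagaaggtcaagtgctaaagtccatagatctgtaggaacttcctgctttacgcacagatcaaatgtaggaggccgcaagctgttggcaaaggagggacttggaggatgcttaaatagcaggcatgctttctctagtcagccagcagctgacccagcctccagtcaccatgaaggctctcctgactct

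*Mpo* (ENSMUSG00000009350, chr11:87793581-87804413 of GRCm38, plus strand) encodes myeloperoxidase, which makes hypochlorous acid from hydrogen peroxide and chloride. It took the largest share of all gene counts in each of the 8 GMP libraries, and it also ranked 1 there per kilobase. In WT GMPs it took 4.47%, 5.12%, 4.04% and 4.58% of the library in replicates 1 to 4, and in UREΔ GMPs 7.59%, 10.3%, 5.94% and 7.60%. The genotypes did not overlap, and the UREΔ mice spread more widely. The widest 95% Clopper-Pearson interval of any share of these genes was 0.0243 percentage points, which covers counting error only, so that the spread between mice and not the depth set the precision. On the log2 scale *Mpo* was 0.85 higher in UREΔ GMPs (SE 0.29, adjusted p = 0.118 with edgeR's quasi-likelihood test and Benjamini-Hochberg adjustment), below the threshold, and 0.81 once the model held the replicate number, the replicate block (adjusted p = 0.0324), above it. DESeq2 also called it (adjusted p = 0.0177). *Mpo* was the sole gene of the group whose genotypes did not overlap in GMPs, where 14.8% of the 13829 genes tested did not overlap.

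In LSKs the share of *Mpo* was far smaller, 0.0890%, 0.107%, 0.149% and 0.107% in WT and 0.0567%, 0.116%, 0.0997% and 0.0853% in UREΔ mice. The genotypes overlapped, and the log2 fold change was -0.30 (SE 0.25, adjusted p = 0.729 with edgeR). *Gm11505*, an antisense gene, shares 512 exonic bases with *Mpo*, and reads from that stretch cannot be told apart in these unstranded libraries. Of the *Mpo* sequences of 31 bases, 12.1% are shared with other genes. In bulk samples a larger number of cells that make a transcript and more of the transcript per cell cannot be told apart either, which holds for every gene here.

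**Figure D1:**
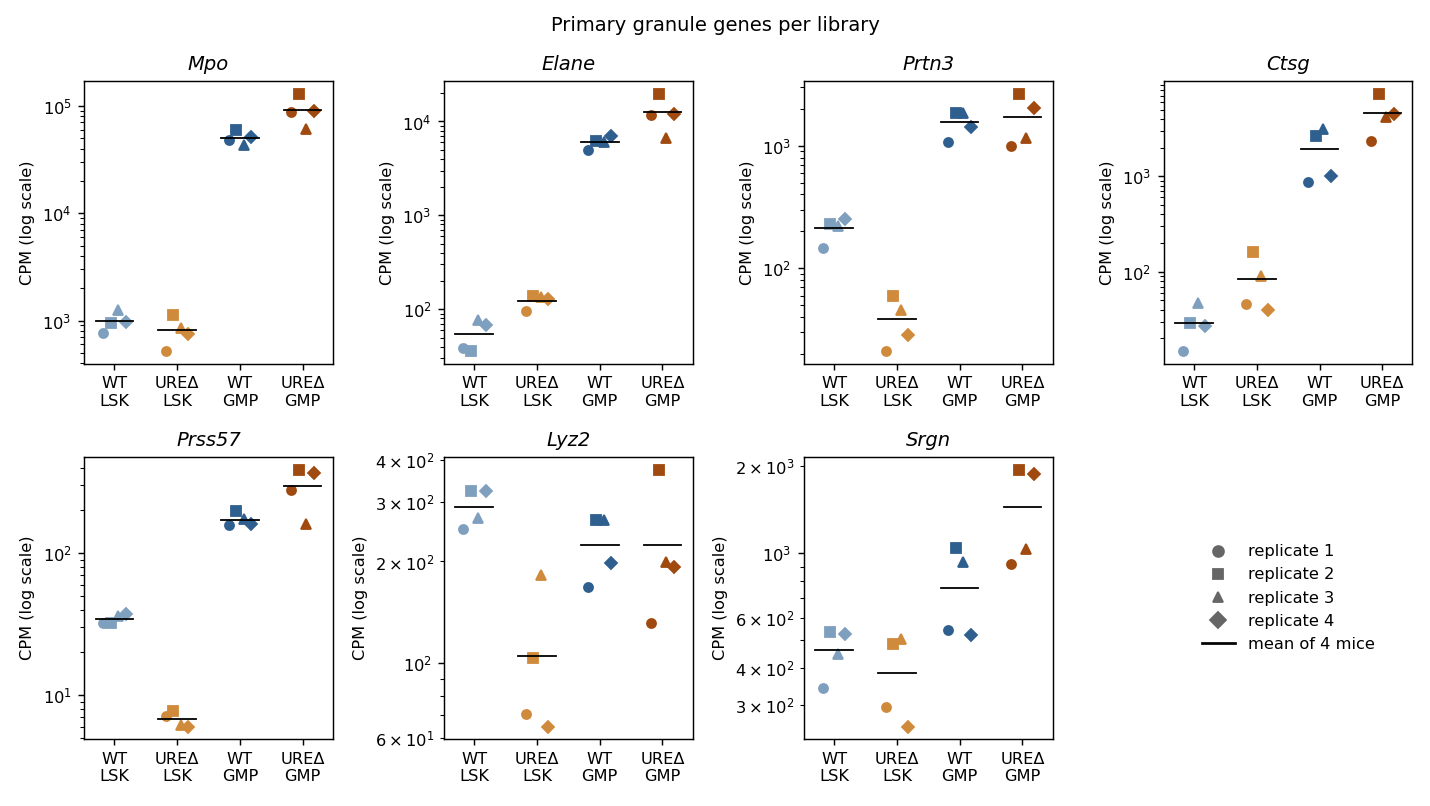
CPM of 7 genes (log axis) in each of the 16 libraries, by group, with a marker per replicate number and a line at the mean of 4 mice. *Prtn3*, *Prss57* and *Lyz2* are lower in every UREΔ LSK library than in every WT LSK library, while *Elane* is higher. *Lyz1* is left out because it had 0 counts in 8 libraries.

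*Prtn3* (ENSMUSG00000057729, chr10:79874476-79883174, plus strand) encodes proteinase 3, an elastase-like serine protease. In LSKs it had 147, 229, 223 and 253 CPM in WT mice and 21.3, 59.5, 46.1 and 28.4 CPM in UREΔ mice. Every UREΔ library lay below every WT library, and the UREΔ to WT ratio of same-numbered mice was between 0.112 and 0.260. The log2 fold change was -2.48 (SE 0.34, adjusted p = 0.00252 with edgeR), and it kept its call in every alternative, with values between -3.03 and -2.13. In GMPs it had 1073, 1855, 1840 and 1416 CPM in WT mice and 988, 2644, 1152 and 2025 CPM in UREΔ mice. These values overlapped, the UREΔ mice spreading more widely on both sides, with a log2 fold change of 0.12 (SE 0.32, adjusted p = 0.90). The overlap of 159 exonic bases with *Plppr3* on the other strand touches a small part of *Prtn3*, 7.48% of whose sequences of 31 bases are shared.

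*Prss57* (ENSMUSG00000020323, chr10:79781474-79790961, minus strand) encodes a neutrophil serine protease that cuts after arginine. It was the tightest of the group in LSKs, with 32.2, 32.3, 36.2 and 37.5 CPM in WT mice and 7.18, 7.69, 6.15 and 6.02 CPM in UREΔ mice. The groups stood far apart, and the UREΔ to WT ratio of same-numbered mice was 0.161 to 0.238. Its log2 fold change was -2.38 (SE 0.20, adjusted p = 0.000187 with edgeR), and between -2.44 and -2.33 under the alternatives, all of them called. In GMPs it had 157, 198, 175 and 160 CPM in WT and 279, 387, 160 and 366 CPM in UREΔ mice. Replicate 3 of UREΔ stood within the WT range and the other three above it, with a log2 fold change of 0.77 (SE 0.25, adjusted p = 0.103). Without that library the value was 0.96 and passed the threshold (adjusted p = 0.0167), as it did within replicates 1 and 4 (1.01, adjusted p = 0.0325). Opposite to *Prss57* lies *Fstl3*, with 1157 exonic bases in common and 39.3% of the *Prss57* sequences of 31 bases shared, so that the counts are uncertain where *Fstl3* is transcribed. *Fstl3* was too low to be tested in LSKs.

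*Elane* (ENSMUSG00000020125, chr10:79886247-79888215, plus strand) encodes neutrophil elastase. In LSKs it had 38.4, 36.1, 76.2 and 67.9 CPM in WT mice and 95.0, 138, 134 and 129 CPM in UREΔ mice. The lowest UREΔ library stood above the highest WT library, and all 4 same-numbered pairs were higher in UREΔ, by 1.76 to 3.81 times. On the log2 scale the difference was 1.15 (SE 0.28, adjusted p = 0.0416 with edgeR), and 1.21 with the replicate block (adjusted p = 0.00806). This call is close to the threshold. It was lost with any single library left out other than replicate 3 of WT LSKs (adjusted p between 0.0502 and 0.113), with upper-quartile factors (adjusted p = 0.0608) within replicates 1 and 4 (1.05, adjusted p = 0.107) and within replicates 2 and 3 (1.24, adjusted p = 0.143), while the value stayed between 1.0 and 1.39 in all alternatives. In GMPs *Elane* had 5012, 6255, 6027 and 6973 CPM in WT mice and 11720, 19670, 6588 and 11940 CPM in UREΔ mice. UREΔ replicate 3 lay inside the WT range and the others above it. Here the log2 fold change was 1.02 (SE 0.30, adjusted p = 0.075), and 0.94 with the block (adjusted p = 0.0377).

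*Ctsg* (ENSMUSG00000040314, chr14:56099881-56102574, minus strand) encodes cathepsin G, a chymotrypsin-like protease. In LSKs it had 14.8, 29.1, 46.7 and 26.8 CPM in WT and 46.4, 160, 89.9 and 39.4 CPM in UREΔ mice. The groups overlapped slightly, since WT replicate 3 lay above UREΔ replicates 1 and 4, though all 4 same-numbered pairs were higher in UREΔ, by 1.47 to 5.50 times. It differed by 1.48 on the log2 scale (SE 0.49, adjusted p = 0.142 with edgeR), which did not pass, and by 1.37 with the block (adjusted p = 0.027), which passed, as it did with DESeq2 (adjusted p = 0.0304). Within replicates 1 and 4, where the sexes match, it was 1.02 and did not pass (adjusted p = 0.117), and within replicates 2 and 3, where sex and genotype cannot be told apart, it was 1.69 and passed (adjusted p = 0.038). In GMPs *Ctsg* had 875, 2643, 3116 and 1011 CPM in WT and 2368, 7312, 4210 and 4537 CPM in UREΔ mice. In WT GMPs replicates 2 and 3 stood above replicates 1 and 4, while in UREΔ GMPs replicate 4 stood above replicate 3. The difference was 1.24 on the log2 scale (SE 0.48, adjusted p = 0.176), and 1.37 with the block (adjusted p = 0.0108). Within replicates 1 and 4 it was 1.86 (adjusted p = 0.0171).

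*Lyz2* (ENSMUSG00000069516, chr10:117277331-117282321, minus strand) encodes the lysozyme of macrophages and other myeloid cells. In LSKs it had 250, 323, 268 and 323 CPM in WT mice and 70.7, 104, 182 and 64.9 CPM in UREΔ mice. UREΔ replicate 3 came nearest to the WT range and did not reach it. The log2 fold change was -1.49 (SE 0.32, adjusted p = 0.0227 with edgeR), and -1.62 with the block (adjusted p = 0.00648). The call was lost when replicates 1, 2 or 4 of UREΔ or 2, 3 or 4 of WT LSKs were left out (adjusted p between 0.0543 and 0.0771, with values between -1.49 and -1.32) and within replicates 2 and 3 (-1.08, adjusted p = 0.141), and held within replicates 1 and 4 (-2.11, adjusted p = 0.00271). In GMPs the genotypes overlapped, with 168, 265, 266 and 198 CPM in WT and 132, 374, 199 and 192 CPM in UREΔ mice, and a log2 fold change of -0.02 (SE 0.30, adjusted p = 0.984).

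*Lyz1* (ENSMUSG00000069515, chr10:117287797-117292868, minus strand), the lysozyme known from Paneth cells of the gut, lies 5475 bases from *Lyz2*. It had 24 counts over all 16 libraries, against 79795 for *Lyz2*. It had 0 counts in 8 libraries, including all 4 of UREΔ LSKs, where a count of 0 allows up to 0.103 to 0.148 CPM, here of the total counts of the library. The highest value was 9 counts, in replicate 4 of WT GMPs. The longest transcripts of the pair are 96.0% identical and share 422 sequences of 31 bases, 32.8% of those of *Lyz2*, so that reads from *Lyz2* could have been assigned to *Lyz1* and the *Lyz1* counts are uncertain. The gene was too low for a test, which leaves 7 of the 8 genes in each comparison.

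*Srgn* (ENSMUSG00000020077, chr10:62493833-62527451, minus strand) encodes the core protein of serglycin, the proteoglycan that retains basic proteases in granules. In LSKs it had 342, 535, 449 and 526 CPM in WT and 294, 487, 507 and 252 CPM in UREΔ mice, which overlapped (log2 fold change -0.29, SE 0.26, adjusted p = 0.76 with edgeR). In GMPs it had 543, 1042, 934 and 521 CPM in WT and 921, 1950, 1035 and 1884 CPM in UREΔ mice. All 4 same-numbered pairs were higher in UREΔ, by 1.11 to 3.62 times. The log2 fold change was 0.91 (SE 0.33, adjusted p = 0.144), and 0.90 with the block (adjusted p = 0.0458). Within replicates 1 and 4 it was 1.38 (adjusted p = 0.0498).

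Over the 7 genes tested in LSKs, 1 was called higher and 3 were called lower, where a call takes both an adjusted p below 0.05 and more than a 1.5-fold change. Of all 15154 genes tested, 2.38% were called higher and 3.76% lower. With the replicate block 2 of the 7 were higher (*Elane* and *Ctsg*) and 3 lower, against 3.83% and 5.62% of all genes in that fit. The genotypes of 4 of the 7 did not overlap, against 12.6% of all genes. In GMPs 0 of 7 were called in either direction by edgeR, where 4.67% of 13829 genes were called higher and 3.63% lower, although 5 were higher in UREΔ mice with an unadjusted p under 0.05, as were 10.6% of all genes. With the block 4 were called higher (*Mpo*, *Elane*, *Ctsg* and *Srgn*), against 9.52% of all genes. DESeq2 called 2 (*Mpo* and *Elane*), against 6% of the 18524 genes to which it gave an adjusted p. The median log2 fold change of all genes was close to 0 in both cell types. *Fcgr3*, which encodes part of the Cd16/32 signal that gates GMPs, was also higher in UREΔ GMPs, with a mean of 824 against 322 CPM (log2 fold change 1.34, adjusted p = 0.0326). *Fcgr2b*, which encodes another part of that signal, had 51.9 CPM in UREΔ and 89.3 in WT GMPs (-0.80, adjusted p = 0.118). The part of the gate in the GMP values was not tested.

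**Figure D2:**
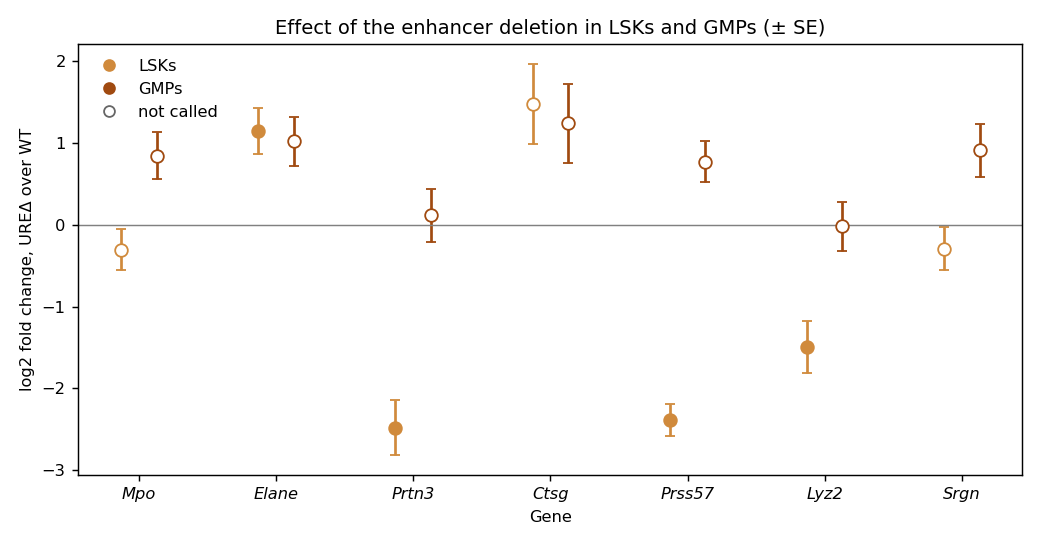
Log2 fold change of UREΔ over WT (± SE) for 7 genes, in LSKs and in GMPs, with filled points for genes called by edgeR. *Prtn3* and *Prss57* are below 0 in LSKs alone, at -2.48 and -2.38, and *Elane* and *Ctsg* lie above 0 in both cell types.

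An interaction term in a fit of all 16 libraries tested whether the cell types differed in the effect of UREΔ. *Prss57* had a difference, GMP minus LSK, of 3.14 on the log2 scale (SE 0.31, adjusted p = 0.000127 with edgeR) and *Prtn3* of 2.60 (SE 0.50, adjusted p = 0.0179). Both kept their calls in every refit but one, and within replicates 1 and 4 (3.43, adjusted p = 0.00333 and 3.29, adjusted p = 0.0316). The exception was replicates 2 and 3 alone, a subset added after the data were seen as was that of replicates 1 and 4, where *Prss57* was 2.86 (adjusted p = 0.322) and *Prtn3* 2.13 (adjusted p = 0.584), and where 1 gene of all tested was called more positive. Of 15935 genes 0.866% were called more positive in GMPs and 0.351% more negative, and of the 7 genes 2 were called more positive and 0 more negative. With the block, *Mpo* (1.16, adjusted p = 0.0304), *Lyz2* (1.52, adjusted p = 0.0209) and *Srgn* (1.23, adjusted p = 0.0415) were called as well, which makes 5, against 3.97% of all genes called more positive in that fit. *Lyz2* also passed within replicates 1 and 4 (1.91, adjusted p = 0.0321). For *Elane* and *Ctsg* the differences were -0.14 (SE 0.43, adjusted p = 0.985) and -0.25 (SE 0.72, adjusted p = 0.985). *Spi1* itself was also called more positive in GMPs (2.64, adjusted p = 0.0218 with edgeR). Its log2 fold change was -5.39 in LSKs and -2.73 in GMPs. The part of this in the values of the primary granule genes was not tested.

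The same numbers can be read along differentiation. From LSKs to GMPs of WT mice, *Elane* rose by 6.78, *Ctsg* by 6.02, *Mpo* by 5.68, *Prtn3* by 2.85 and *Prss57* by 2.31 on the log2 scale. In UREΔ mice these values were 6.61, 5.74, 6.78, 5.41 and 5.41. *Prtn3* and *Prss57* thus started lower and rose further in UREΔ mice, which is the interaction above, while that of *Elane* and *Ctsg* did not pass. In WT 5 of the 7 genes were called higher in GMPs and 0 lower, where 11.5% and 15.8% of all genes were called. In UREΔ 6 were called higher and 0 lower, against 9.2% and 12.6% of all genes. *Srgn* was the sixth, at 1.87 (SE 0.33, adjusted p = 0.0038), against 0.70 (SE 0.27, adjusted p = 0.0769) in WT, where it passed with the block (adjusted p = 0.011). *Lyz2* was -0.39 (adjusted p = 0.16) in WT and 1.04 (adjusted p = 0.0913) in UREΔ mice, where it passed with the block (1.08, adjusted p = 0.0135) and within replicates 1 and 4 (1.27, adjusted p = 0.00631).

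The share of the library taken by all 8 genes together was far higher in GMPs than in LSKs of both genotypes. In LSKs it was 0.184% to 0.281% in WT and 0.115% to 0.215% in UREΔ mice, which overlap. In GMPs it was 5.19% to 6.18% in WT and 7.24% to 12.9% in UREΔ mice, which do not, and *Mpo* alone made up 77.9% to 86.1% of these counts in WT and 79.99% to 84.1% in UREΔ GMPs. The pooled figures are dominated by *Mpo*, so no test was made on them. Removing these genes from the library sizes and scaling factors left every call of the 7 genes as it was.

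**Figure D3:**
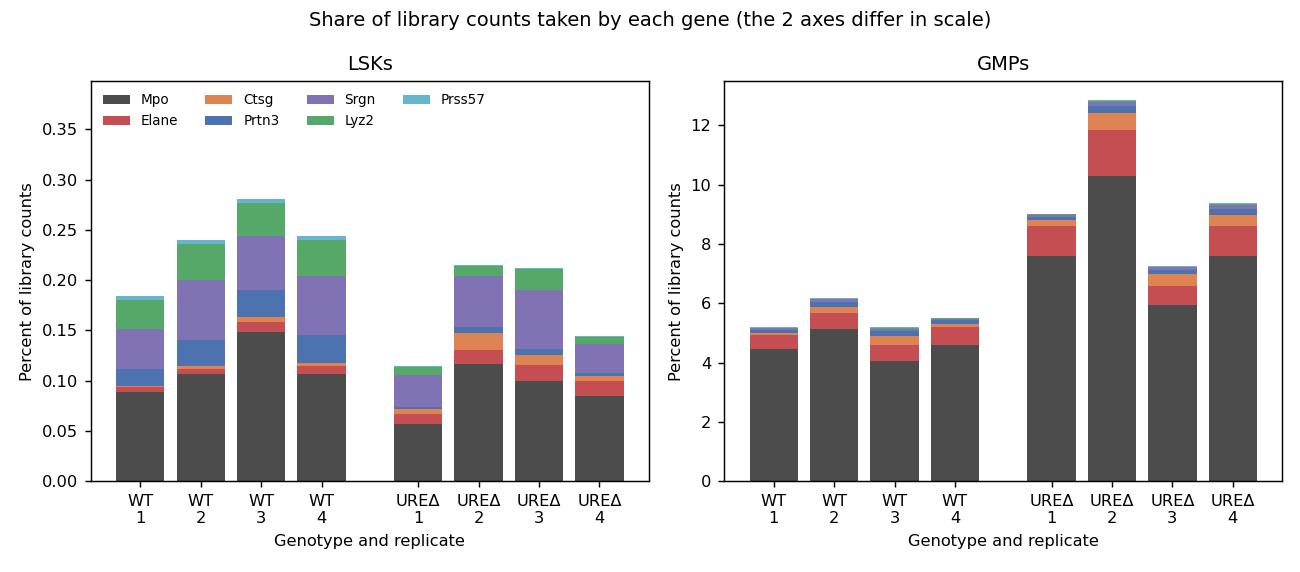
Percent of library counts taken by each gene other than *Lyz1*, which is not drawn, stacked per library, for LSKs and GMPs on axes of different scale. *Mpo* fills most of every GMP bar, and the 8 genes together take 7.24% to 12.9% of UREΔ GMP libraries against 5.19% to 6.18% of WT GMP libraries.

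The make-up of the serine protease counts separated the genotypes, more widely in LSKs than in GMPs for *Prtn3*. *Prtn3* held 58.4% to 70.2% of the counts of the 4 proteases in WT LSKs, but 12.5% to 16.7% in UREΔ LSKs, while *Elane* held 11.1% to 19.9% and 37.7% to 63.6%. In WT GMPs *Prtn3* held 14.8% to 16.9% and *Elane* 54.0% to 72.9%, and in UREΔ GMPs 6.43% to 10.7% and 54.4% to 76.3%, so that the genotypes did not overlap for *Prtn3* and did for *Elane*. UREΔ LSKs therefore had a *Prtn3* share within or close to the WT GMP range. The count ratio of *Elane* to *Prtn3* was 0.158 to 0.341 in WT LSKs, 2.31 to 4.54 in UREΔ LSKs, 3.28 to 4.92 in WT GMPs and 5.72 to 11.9 in UREΔ GMPs. The ratio uses counts within a library and does not depend on the scaling. *Prss57* held 9.47% to 13.9% in WT LSKs against 2.11% to 4.23% in UREΔ LSKs.

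**Figure D4:**
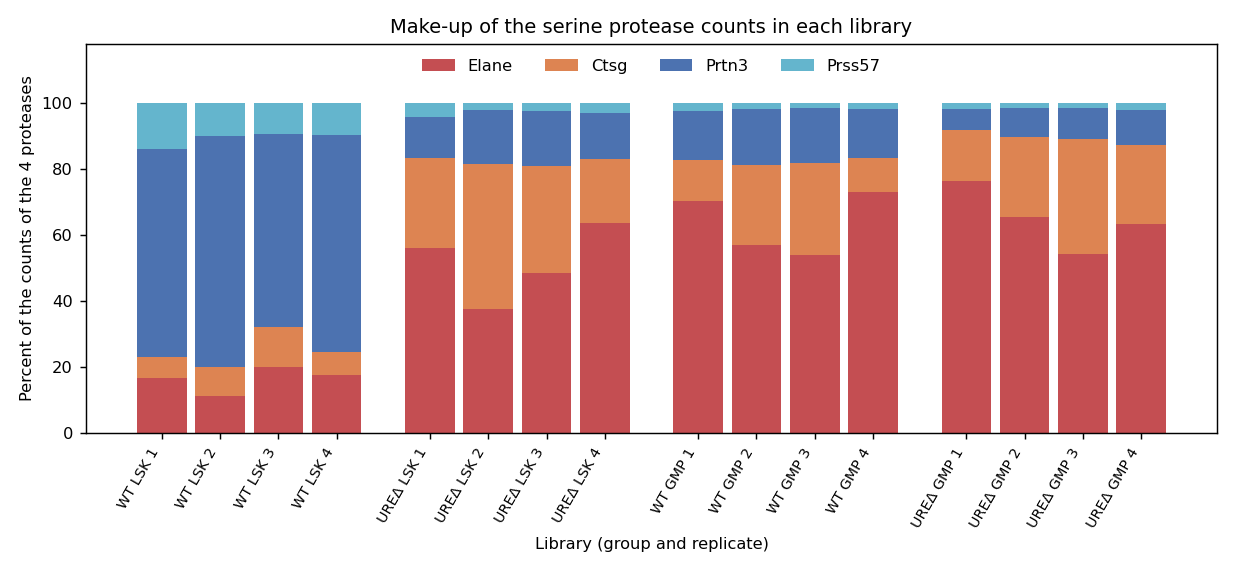
Percent of the summed counts of *Elane*, *Ctsg*, *Prtn3* and *Prss57* taken by each, stacked per library in the order of the groups. *Prtn3* fills 58.4% to 70.2% of the bar in WT LSKs and at most 16.9% in the other groups, while *Elane* fills 11.1% to 19.9% there and at least 37.7% elsewhere.

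Per kilobase of exon, *Mpo* ranked highest of the 8 genes in every group. In WT LSKs the order of the mean levels was *Mpo* (963), *Lyz2* (746), *Srgn* (708), *Prtn3* (413), *Elane* (186), *Ctsg* (94.2) and *Prss57* (41.2), of which *Lyz2* and *Srgn* and also *Elane* and *Ctsg* overlapped. In UREΔ LSKs the order was *Mpo* (794), *Srgn* (584), *Elane* (428), *Lyz2* (268), *Ctsg* (263) and *Prtn3* (74.0), with *Prss57* (8.09) the lowest of the 7 genes tested. There *Srgn* (432 to 761) overlapped *Mpo* (561 to 965), *Elane* (356 to 494), *Lyz2* (186 to 456) and *Ctsg* (144 to 455). *Elane*, *Lyz2* and *Ctsg* also overlapped each other, and *Lyz1* was at 0. With the length of the longest transcript in place of all exons, *Srgn* (683) stood above *Lyz2* (566) in WT LSKs and *Ctsg* (205) just above *Lyz2* (203) in UREΔ LSKs. In WT GMPs the order was *Mpo* (38080), *Elane* (15870), *Ctsg* (4548), *Prtn3* (2260), *Srgn* (870), *Lyz2* (432) and *Prss57* (156), of which *Ctsg* and *Prtn3* overlapped. The means had the same order in UREΔ GMPs, from *Mpo* (65370) and *Elane* (30720) to *Prss57* (255), where *Prtn3* overlapped *Srgn* and *Lyz2* overlapped *Prss57*.

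Among the neighbours within 100000 bases of the *Prss57*, *Prtn3* and *Elane* genes on chromosome 10, 1 of the 12 that could be tested in LSKs was called, *Palm*, which encodes a membrane-associated protein and lies between *Prss57* and *Prtn3*. It had a mean of 8.66 CPM in WT and 2.52 CPM in UREΔ LSKs (log2 fold change -1.80, adjusted p = 0.0325 with edgeR). In GMPs 0 of 13 neighbours were called, and *Palm* had 40.5 and 41.1 CPM. Over all genes tested, 2.38% were called higher and 3.76% lower in LSKs, and 4.67% and 3.63% in GMPs. Between *Palm* and *Prtn3*, *Plppr3* was -0.95 (adjusted p = 0.726) and *Ptbp1* was 0.16 (adjusted p = 0.907) in LSKs. *Misp*, which also lies between *Prss57* and *Prtn3*, was too low to be tested. Whether the lower levels in LSKs share a cause along the locus was not tested. Next to *Lyz1* and *Lyz2*, 0 of 2 tested neighbours were called in either cell type.

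**Figure D5:**
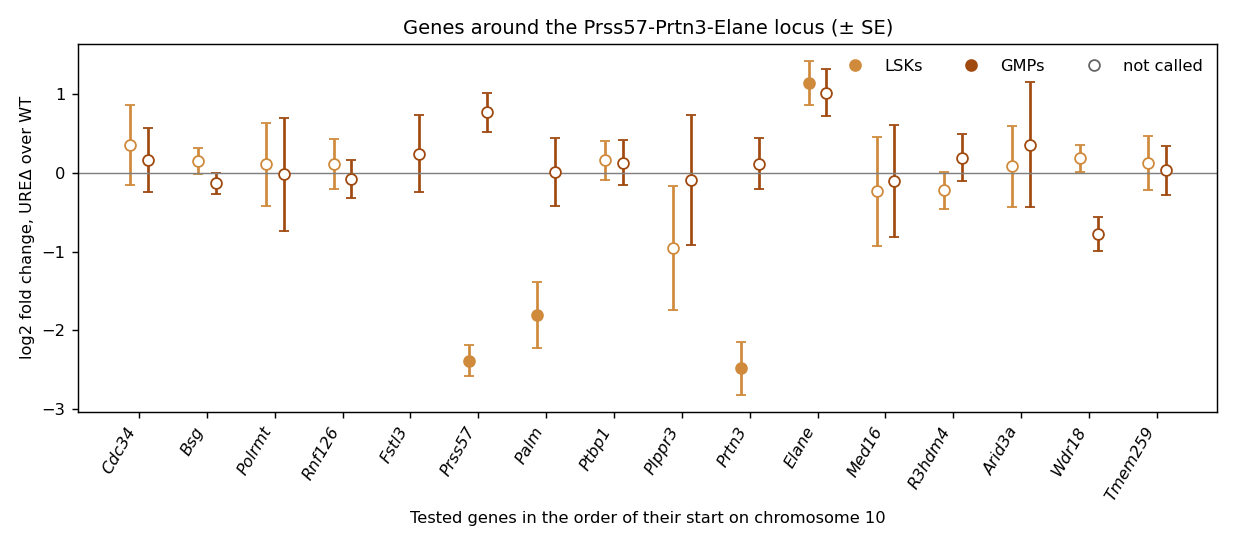
Log2 fold change of UREΔ over WT (± SE) in LSKs and in GMPs for tested genes in the order of their start around the *Prss57*, *Prtn3* and *Elane* genes, with filled points for called genes. *Prss57*, *Palm* and *Prtn3* fall in LSKs, *Elane* rises, and the other genes shown are not called.

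The other members of the granule pathway gave the setting. For every list below, the shares called over all genes were 2.38% higher and 3.76% lower in LSKs, and 4.67% and 3.63% in GMPs. Among the regulators of primary granule genes, 1 of 7 tested in LSKs and 1 of 8 in GMPs was called, *Spi1* itself, at -5.39 (adjusted p = 0.000266) and -2.73 (adjusted p = 0.00095). *Cebpa*, *Cebpe*, *Gfi1*, *Myb*, *Runx1* and *Cbfb* did not pass in either cell type, with log2 fold changes of -1.44, 1.03, -1.29, -0.26, -0.65 and -0.01 in LSKs. *Cebpb* was too low to be tested in LSKs and was 0.26 (adjusted p = 0.857) in GMPs. The median of the list was -0.65 in LSKs and 0.19 in GMPs, beside 0.000926 and 0.00521 over all genes tested.

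Of the 5 genes for protease processing and inhibition, *Slpi*, which encodes an inhibitor of elastase, was called higher in LSKs (1.60, adjusted p = 0.0151) and in GMPs (2.46, adjusted p = 0.00253), and *Cst7*, which encodes an inhibitor of cysteine cathepsins, in GMPs (1.16, adjusted p = 0.0333). In LSKs *Cst7* had a similar value that did not pass (1.15, adjusted p = 0.0669). *Ctsc*, the dipeptidyl peptidase that trims the serine proteases to their active form, was 165 CPM in WT LSKs, 185 in UREΔ LSKs, 222 in WT GMPs and 223 in UREΔ GMPs, and was not called in any comparison. *Serpinb1a* was 0.05 (adjusted p = 0.978) in LSKs and 0.61 (adjusted p = 0.225) in GMPs, and *Serpinb6a* -0.10 (adjusted p = 0.948) and 0.50 (adjusted p = 0.412). Medians of the list were 0.14 in LSKs and 0.61 in GMPs.

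Of the 6 tested genes for other primary granule proteins, *Cd63*, a granule membrane tetraspanin, was called higher in LSKs (0.95, adjusted p = 0.00539) and in GMPs (1.42, adjusted p = 0.00118), and *Cd68*, a lysosomal membrane protein, lower in both (-2.03, adjusted p = 0.00123 and -2.31, adjusted p = 0.00225). The remaining 4 were not called, and *Bpi* was too low to be tested. The median was -0.29 in LSKs and 0.02 in GMPs.

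Of 6 promyelocyte-stage genes, *Rgcc* was called higher in both cell types (1.14, adjusted p = 0.0372 in LSKs and 2.21, adjusted p = 0.00225 in GMPs). *Hk3* (-2.26, adjusted p = 0.000406), a hexokinase, and *Fut4* (-2.31, adjusted p = 0.0227), a fucosyltransferase, fell in LSKs and were not called in GMPs (-0.49 and -0.29). *Nkg7* rose in GMPs (1.07, adjusted p = 0.0169) and *Ms4a3*, known from committed granulocyte-monocyte progenitors, fell there from 637 to 183 CPM (-1.83, adjusted p = 0.0481). *Fcnb* was 1.33 (adjusted p = 0.0672) in LSKs and 1.11 (adjusted p = 0.311) in GMPs. The median was -0.35 in LSKs and 0.39 in GMPs.

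Of the genes for specific and gelatinase granules, which are made later in neutrophil development, 3 of 8 tested were called higher in LSKs and none lower, *Ngp* (2.37), *Cd177* (2.37) and *Hp* (2.08). In GMPs 4 of 9 were called higher, *Lcn2* (3.80), *Ngp* (2.95), *Cd177* (2.69) and *Hp* (1.69), and 2 lower, *Mmp8* (-3.04) and *Chil3* (-3.05). The medians were 1.73 and 1.69, beside 0.000926 and 0.00521 over all genes tested. Of all genes, 2.38% were called higher and 3.76% lower in LSKs, and 4.67% and 3.63% in GMPs.

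Of 12 proteases that other cells store with serglycin, 7 could be tested in LSKs and 4 were called higher, *Gzmb* (5.85), *Mcpt8* (2.11), *Cpa3* (1.90) and *Gzmc*, which had 0 counts in all WT LSK libraries and was at least 16.3-fold higher in UREΔ, counting a floor of 3 counts per library. *Cma1* (4.32, adjusted p = 0.081), *Tpsb2* (4.42, adjusted p = 0.0951) and *Prss34* (-0.94, adjusted p = 0.885) were not called there. The median of the 7 was 4.32, and 4.03 with *Gzmc* at that bound. In GMPs *Gzmb* (3.96) and *Mcpt8* (1.48) were called higher and *Prss34* (-2.43) lower of 4 tested, while *Cpa3* was not called (1.11, adjusted p = 0.209), with a median of 1.29. Among all genes tested, 2.38% were called higher and 3.76% lower in LSKs, and 4.67% and 3.63% in GMPs. *Mcpt8*, *Cpa3* and *Prss34* are known from basophils and mast cells and *Gzmb* and *Gzmc* from cytotoxic lymphocytes.

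Of the 7 markers of LSKs, 2 were called lower in UREΔ LSKs, *Cd34* (-1.31, adjusted p = 0.00638) and *Flt3* (-1.67, adjusted p = 0.0295), and 0 higher, and their summed level was 2771 to 5173 CPM in WT and 2305 to 3234 CPM in UREΔ LSKs. Of the 4 markers of GMPs, *Fcgr2b* (-4.77, adjusted p = 0.0064) and *Cd34* were called lower in LSKs, and of the 2 megakaryocyte markers tested *Itga2b* was called higher there (1.88, adjusted p = 0.026). In UREΔ GMPs *Cd34* (-1.80, adjusted p = 0.000283) and *Flt3* (-2.78, adjusted p = 0.00451) were called lower too, *Cd34* at 304 against 1050 CPM. Markers of some other cell types differed between the genotypes as well. Over all genes tested, 2.38% were called higher and 3.76% lower in LSKs, and 4.67% and 3.63% in GMPs. The summed level of the 5 monocyte markers was 1288 to 1947 CPM in WT GMPs and 72.3 to 687 CPM in UREΔ GMPs, with 4 of 5 called lower (*Ly86*, *Csf1r*, *Ccr2* and *Irf8*). In LSKs it was 55.03 to 110 and 9.91 to 20.4 CPM, with 3 of 5 called lower. The 5 mature neutrophil markers summed to 30.1 to 93.6 CPM in WT GMPs and 61.7 to 386 CPM in UREΔ GMPs, with overlapping sums and *Retnlg* called higher of 4 tested, and to 16.1 to 76.4 and 22.3 to 106 CPM in LSKs, with 0 of 4 called. *Ly6g*, which defines mature neutrophils, had a mean of 0.25 CPM in UREΔ GMPs and 0.05 in WT GMPs. The 3 eosinophil markers summed to 540 to 1152 CPM in WT GMPs and 62.3 to 281 CPM in UREΔ GMPs, with 3 of 3 called lower and *Il5ra* at 0 in UREΔ GMPs, while in LSKs 0 of 2 were called. The 3 dendritic cell markers summed to 199 to 349 CPM in WT and 13.1 to 33.2 CPM in UREΔ GMPs, and to 688 to 1445 and 242 to 401 CPM in LSKs, with 2 of 2 tested called lower in both cell types. The 5 mast cell and basophil markers overlapped in sum in GMPs, at 706 to 1262 and 862 to 2374 CPM, with 1 called higher and 2 lower, and in LSKs 2 were called higher. Of the 4 macrophage markers, 1 was called lower in UREΔ GMPs, *Adgre1* (-1.35, adjusted p = 0.0417), and 0 were called in LSKs. The part of these markers and cell types in the values of the primary granule genes was not tested.

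The closest profiles differed between the genes, measured as the root mean square difference of centred log2 CPM over the 16 libraries, which is a description with no test. Among the 7 genes *Prtn3* and *Prss57* were closest to each other (0.48), although 83514 bases lie between them. Outside the group their nearest genes were *Clec12a* (0.58 and 0.59) and *Tent5a* (0.65 and 0.69), and the third for *Prss57* was its neighbour *Palm* (0.75). *Clec12a* and *Tent5a* had lower means in UREΔ than in WT LSKs, which follows in part from choosing genes by their profile. *Trem3* was nearest to *Elane* (0.46) and to *Ctsg* (0.49). *Hdc*, the gene of histidine decarboxylase, was nearest to *Mpo* (0.57). *Lyz2* was nearest to *Arhgap15* (0.33) and *Srgn* to *Rnaseh2c* (0.23).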

How the data were processed

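Genes of sorted LSKs and GMPs from UREΔ and WT mice (4 mice per genotype and cell type) were compared. The authors quantified the reads with salmon, summed transcripts to genes with tximport and deposited estimated counts per gene on GRCm38, already whole numbers. The salmon version and the annotation release are not given in the sources used here. Libraries came from up to 10 ng of RNA, without strand or molecular identifiers. Positions are from GENCODE M21, which holds 54094 of 54347 gene identifiers.

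Counts were tested in edgeR 4.0.16 (R 4.3.3, TMM, filterByExpr, quasi-likelihood test, Benjamini-Hochberg over all genes). Genes were called below an adjusted p of 0.05 and with more than a 1.5-fold change (for the interaction, the p alone). CPM use TMM sizes over all 16 libraries and are rounded to 4 significant digits. Alternatives were DESeq2 1.42.0, other scaling factors and filters, a joint fit, thinned counts, the replicate block, subsets of replicates and leaving out each library.

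The labels number the replicates without saying what a number stands for. Deviations of same-numbered libraries correlated at 0.28 to 0.77 in every comparison and those of different numbers at -0.21 to -0.14 on average, so the block was fitted. The labels do not say that an LSK and a GMP library with the same number are from 1 mouse. No replicates were near-identical (chi-square per degree of freedom at least 29.6). The tests were tried on simulated data.

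The members, gene lists and tests were chosen with earlier results of these data known. Genes named are the members, *Spi1*, up to 4 called genes per list and direction, lists of up to 6 genes in full, neighbours within 100000 bases and nearest profiles. The regulators, markers of the gates and of mature neutrophils and some uncalled genes of other lists were named after their values were seen. Levels per kilobase use the union of exons, with the longest transcript as an alternative.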

Additional observations from a re-analysis of the deposited data

Results flagged for a closer look

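*Prtn3* and *Prss57* were singled out because the effect of UREΔ differed between LSKs and GMPs, by 2.60 and 3.14 on the log2 scale (GMP minus LSK, interaction term, adjusted p = 0.0179 and 0.000127 with edgeR). Both genes were lower in all 4 UREΔ LSK libraries.

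*Lyz1* was singled out in 2 groups of 4 libraries for a library far from the others. In WT LSKs replicate 3 had 0.117 CPM, 3 counts, while the others had 0. In UREΔ GMPs replicate 2 had 0 CPM, while the others had 1 count each. Among 36 groups of 4 libraries tested with Dixon's criterion, chance gives about 1 in 20, and both values rest on at most 3 counts.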

How the results depend on the processing

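Members called higher in LSKs were 1 in the chosen fit, 2 with DESeq2, 2 with the replicate block, 0 with upper-quartile factors, 0 with replicates 1 and 4 alone, and 0 to 1 with a library left out. Over all genes the last 3 gave 347, 352 and 206 to 353. In GMPs they were 0, against 2 with DESeq2, 1 without a filter on low counts, 4 with the replicate block, 2 in a joint fit of 16 libraries, 3 with replicates 1 and 4 alone, and 0 to 2 with a library left out, beside 685, 876, 675 and 395 to 638 of all genes without the filter, in the joint fit, with that pair and with a library left out. Without replicate 3 of UREΔ GMPs, *Elane* and *Prss57* passed there. In the interaction 5 members, and not 2, were more positive with the block, and 0 with replicates 2 and 3 alone. The share of the 8 genes in WT GMPs was 6.12% of TMM effective sizes, against 5.52% of all counts. The cause of these shifts was not tested.

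Directions changed for differences near 0. In GMPs *Lyz2*, at -0.02, was 0.001325 in the joint fit, 0.07325 with replicates 2 and 3 alone and -0.3839 to 0.1642 with a library left out. *Prtn3* in GMPs, at 0.12, was -0.00195 with replicates 2 and 3 alone and -0.1864 to 0.3047 with a library left out. The interaction of *Elane* ran from -0.4493 to 0.05293 and that of *Ctsg* from -0.5639 to 0.2776 with a library left out, and it was 0.8279 with replicates 1 and 4 alone. Of 742 member fold changes under alternatives, 675 kept direction and call, 32 gained it, 19 lost it and 16 changed direction. An interaction without a fold threshold is the chosen fit itself.

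Counts over all genes moved too. In LSKs 360 higher and 570 lower became 677 and 955 with DESeq2, and 581 and 852 with the block. In GMPs 646 and 502 became 1112 and 887, and 1317 and 943. The interaction's 138 and 56 became 416 and 258, and 632 and 415. In the WT comparison of GMPs with LSKs, 2335 lower became 3706 with the block. With the longest transcript 9 of 32 levels per kilobase moved by more than the spread between mice. Among the members, *Lyz1* alone had too few counts for a test.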
